A study of Homo sapiens with 6 samples.

Results

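The protein components of the cytosolic ribosome were examined at the mRNA level in U2OS cells, a human osteosarcoma line, after depletion of the histone demethylase LSD1 (gene symbol KDM1A). Members were the genes of the deposited count table named RPL or RPS with a number and, in some cases, a closing A or X, plus RPLP0, RPLP1, RPLP2 and RPSA. This naming matched 73 of the 15585 genes in the table, 27 of the 40S subunit and 46 of the 60S subunit, and 72 of them had enough reads to be tested. The comparison was between 3 libraries of cells transfected with a control siRNA (siCTR) and 3 of cells transfected with an LSD1 siRNA (siLSD1), all taken at 48 h in the same cell line. The siRNA acts on the whole transfected population and lowers rather than removes its target, and the labels do not say whether the 3 libraries of a group came from separate cultures, so p-values measure only the spread between these libraries.

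A ribosome is built from ribosomal RNA and a set of proteins that are needed in fixed proportions, and the genes for these proteins are among the most highly transcribed in dividing cells. Most of their mRNAs begin with a C followed by an unbroken run of pyrimidines, the terminal oligopyrimidine (TOP) tract, through which mTORC1 and the RNA-binding protein LARP1 control their translation. Some of the proteins also act outside the ribosome, such as RPL5 and RPL11, which bind 5S ribosomal RNA and, when not assembled, the p53 ubiquitin ligase MDM2.

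The 6 libraries held between 12513511 and 13561344 counted reads. KDM1A itself had 6140, 6493 and 6573 reads under siCTR against 1110, 1198 and 1246 under siLSD1. Among 7 mesenchymal markers VIM was abundant (at least 9487 reads in each library) and COL1A1, the main collagen of bone, had 122 to 200 reads, whereas RUNX2 and SPARC, also typical of osteoblasts, had at most 4 reads and COL1A2 had no row. FN1 was the marker that passed the test, with 238 to 433 reads under siCTR against 609 to 794 under siLSD1 (log2 fold change 0.95, edgeR adjusted p = 0.0216), although not without siLSD1 replicate 1 or without siLSD1 replicate 3 (1.01 and 0.85, edgeR adjusted p = 0.0505 and 0.0541). Of 7 markers of other cell types only CDH1 (66 to 154 reads, higher in each siLSD1 library than in any siCTR library) and EPCAM (28 to 41 reads) were above 3 reads. The library of siCTR replicate 2 stood apart. Its counts differed from those of siCTR replicates 1 and 3 by a chi-square of 27.8 and 21.6 per degree of freedom, against 6.75 between replicates 1 and 3. Against the siLSD1 libraries it differed by 27 to 37.4, and among these siLSD1 replicates 1 and 3 also differed from each other, by 22. The main counts and medians below are therefore given with and without siCTR replicate 2, as are many single fold changes.

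The TOP starts are shown first, since they are the sequence feature that ties the family together. RefSeq start sites of GRCh38.p14 were found for 62 of the 77 symbols that the naming covers. These 62 include RPS9, RPS18 and RPS25, which had no row in the count table. In each line, bases before the annotated start are in lower case, and the capitals mark the run of C and T that begins at the first transcribed base. Shown are the members with the lowest p-values, RPS6 and RPSA as well known TOP mRNAs, RPL22, and RPL39, RPL41 and RPL11 from the ends of the fold change order.
RPS7 (plus strand of chr2:3575250-3575273): cgccctcctcCTCgcgctgtttcc
RPS19 (plus strand of chr19:41860245-41860268): ccccgtcgttCCCTTTCCCCTggc
RPLP2 (plus strand of chr11:809957-809980): tcggcgccttCCTTTTCCTCCCTg
RPL35 (minus strand of chr9:124861944-124861967): cgcctacttcCTCTTTCCCTCgga
RPS6 (minus strand of chr9:19380223-19380246): gaagttggccCTCTTTTCCgtggc
RPSA (plus strand of chr3:39406710-39406733): tgccgcctgtCTTTTCCgtgctac
RPL22 (minus strand of chr1:6199582-6199605): cgctcacctcCCTTTCTaactccg
RPL39 (minus strand of chrX:119791617-119791640): ccgccagcttCCCTCCTCTTCCTT
RPL41 (plus strand of chr12:56116623-56116646): cttcgcctttCTCTCggccttagc
RPL11, downstream of its 2 starts (plus strand of chr1:23691796-23691819): gctccgctttCTCTTCCTgctctc
In all of these windows the first transcribed base was C. The run from that base was 13 bases long in RPLP2, 11 in RPS19 and in RPL35, but 3 in RPS7. The upstream start annotated for RPL11 and the downstream start of RPS19 began with a base other than C or T.

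Across the family, 53 of the 62 genes (85.5%) had at least 1 annotated start with a TOP-like sequence, defined as a C within 5 bases of the start followed by at least 4 further pyrimidines. The same was true of 25.2% of the 27305 genes in the RefSeq table, and of 16 of 69 genes of the mitochondrial ribosome (23.2%). With the C required at the first transcribed base itself, the shares were 74.2% of the 62 genes and 5.14% of all genes. The longest pyrimidine run touching the start had a median of 11 bases over the 77 starts of the 62 genes and 4 over all starts. The 9 members without a TOP-like start at any annotated site were RPL6, RPL9, RPL15, RPL17, RPL27, RPS4X, RPS15, RPS26 and RPS29. Of 3 motifs sought on both strands of the 300-base promoter windows, CCGGAAG (the core bound by ETS factors) occurred in 22 of the 62 genes (35.5%) and 12.2% of all genes. AAGATGGC (bound by YY1) occurred in 6 of the 62 genes (9.68%) and 3.52% of all genes. CACGTG (the E-box of MYC and related factors) occurred in 4 of the 62 (6.45%) and 8.77% of all genes. Of the tested genes outside the family, 22.4% held CCGGAAG, 6.53% AAGATGGC and 12.8% CACGTG. Of the 69 genes of the mitochondrial ribosome, 43.5% held CCGGAAG, 30.4% AAGATGGC and 13.0% CACGTG.

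Not every ribosomal protein gene could be read from these counts. RPS9, RPS18 and RPS25, all of the 40S subunit, were among the symbols with no row in the table. RPL7A, a large-subunit protein, had a row with 0, 1 and 0 reads under siCTR, then 0, 2 and 0 under siLSD1, and was not tested. Of the tested members, 59 had a mean of at least 1000 reads per library, and the median member had 5910. The other 13 lay below 1000 reads, namely RPL9, RPL17, RPL21, RPL22, RPL26, RPL36A, RPL39, RPL41, RPS10, RPS15A, RPS26, RPS27 and RPS28. RPS10 had 16, 40 and 23 reads under siCTR against 31, 24 and 9 under siLSD1. RPL36A had 23, 23 and 10 reads under siCTR against 19, 15 and 22 under siLSD1. Counts as low as those of RPL7A, RPS10 and RPL36A limit what can be read for these genes. Whether the counting or low expression lay behind them was not tested.

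Features of the genes themselves were set beside these low counts. In the GENCODE 44 annotation, 4 members shared over 40% of the exon bases of their reference transcript with another gene on the same strand: RPL17 (96.9%, with the readthrough gene RPL17-C18orf32), RPS10 (84.0%, RPS10-NUDT3), RPL26 (65.3%) and RPL36A (43.8%, RPL36A-HNRNPH2). These 4 had means of 18.7 to 171.0 reads, whereas the 69 other rows had a median of 6254. Overlap with a gene on the opposite strand was also found in members with many reads: RPL38 shared 59.0% of its exon bases in that way and had a mean of 1833 reads, and RPL10 shared 53.7% and had 6086. Spliced copies of the transcript at 99% identity or more on alternate contigs of GRCh38 were found for RPS9 (9 copies) and RPS18 (4), both without a row, and for 0 of the 72 tested members. Copies without introns at the same identity existed for 11 symbols, among them RPL9, RPL17, RPL21, RPL39 and RPS10, but also for RPSA, RPS3A and RPL6, whose means were 11778, 3758 and 9334 reads. The number of annotated pseudogenes ran from 1 to 133 (RPL21) and stood at 80 for RPL7A and 4 for RPS25. Neither the genome build nor the rule for reads that match several places is stated in the sources used here, and the part of these features in the low counts was not tested.

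A second set of counts of the same 6 libraries, deposited in tables that each hold 1 siCTR and 1 siLSD1 library, gave slightly more reads for the family. The ratio of the second to the first count had a median of 1.10 over the 72 tested members and 1.11 over 10311 genes with at least 50 reads. It was largest for RPL26 (1.35), RPS20 (1.33), RPL9 (1.25), RPS15A (1.22) and, at 1.18 each, RPL21 and RPL36A. RPS9 and RPS18 had no row in those tables either. RPS25 and RPL7A had rows there for replicate 2 of each group only, with 1 read under siCTR and 3 under siLSD1 for RPS25, and 2 and 3 for RPL7A.

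The level of each member depended on the length it was divided by. The authors' FPKM values had a median of 240.0 over the tested members against 9.2 over all tested genes, and 59 of the 72 members lay above 52.2 FPKM, the 90th percentile of all tested genes. On this scale RPL35 (1789 FPKM), RPS2 (1360), RPL5 (1208) and RPS16 (1022) were among the highest, and RPL36A (1.14), RPS10 (1.40), RPS28 (3.26), RPL17 (3.90) and RPL9 (5.33) were lowest. The gene lengths behind these FPKM values ran from 359 bases (RPS27) to 8211 (RPS29), which was up to 48.9 times the coding length. Per kilobase of coding sequence the order changed, with RPL37 (3299 reads per coding kilobase, scaled by library size), RPL35 (2613), RPL31 (2193), RPS3 (2182) and RPL23 (1868) highest. RPL37 reached only 120.0 FPKM, since 7988 bases stood behind that value. The lowest members stayed RPS10 (3.68), RPL36A (4.48), RPL17 (8.07) and RPS28 (20.9), followed here by RPL21 (21.5). Over the 72 members the orders on the 2 scales correlated with a Spearman rho of 0.65, a description across genes that share the same libraries and counts.

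**Figure D1:**
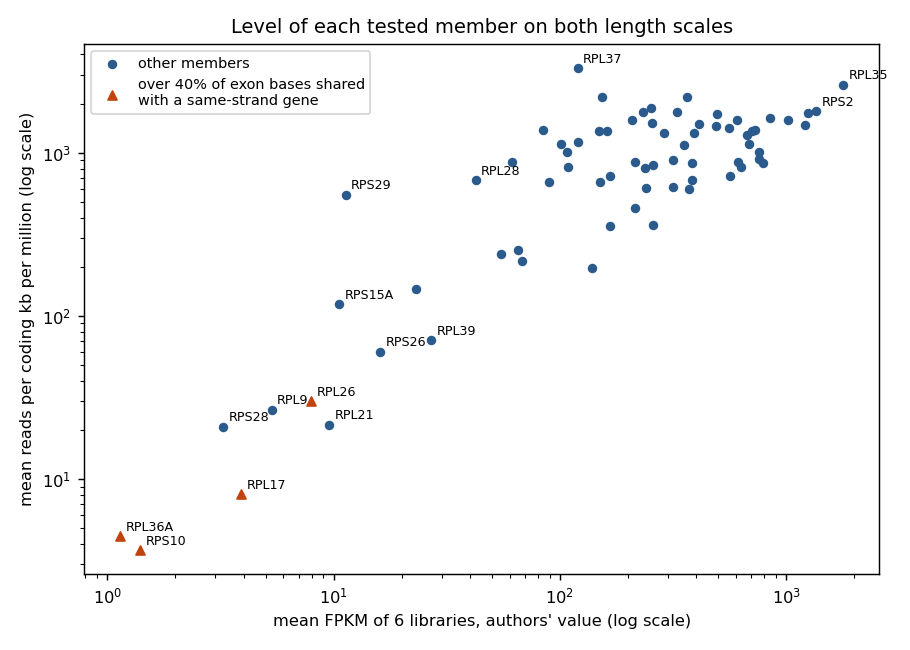
Mean FPKM (horizontal, log scale) against mean library-size-scaled reads (CPM) per kilobase of coding sequence (vertical, log scale) for the 72 tested members, each point 1 gene. Triangles are the 4 members that share over 40% of their exon bases with a same-strand gene, and all 4 lie in the lower left with at most 7.98 FPKM, while RPS29 and RPL37, whose reads are divided by 8211 and 7988 bases for FPKM, lie above the main cloud.

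In siLSD1 libraries, no ribosomal protein gene passed the test against siCTR after adjustment over all genes. By the quasi-likelihood test of edgeR, the adjusted p of every member was at least 0.185, and 0 of 72 members were called, against 1.44% of the 11844 tested genes. At an unadjusted p under 0.05 there were 4 members lower in siLSD1 (RPS7, RPS19, RPLP2 and RPL35) and 0 higher, while 6.55% of all tested genes were lower and 7.48% higher at that level. DESeq2's Wald test also called 0 members after adjustment, against 2.73% of all tested genes, and 4 as lower before it, against 6.13%. The count of 4 rested on single libraries: it was 16 without siCTR replicate 1, 12 without siCTR replicate 3, 5 without siLSD1 replicate 1, and 1 without siLSD1 replicate 2 or without siLSD1 replicate 3. In these fits 6.58%, 6.05%, 7.43%, 3.79% and 6.0% of all tested genes were lower at that level. Without siCTR replicate 2 the count was 1 lower (RPS7) and 1 higher (RPL41), with 5.69% of all tested genes lower. The log2 fold changes nevertheless leaned to 1 side: 69 of 72 lay below 0, with a median of -0.17, against 52.7% of all tested genes and a median of -0.01. The fold changes ran from -0.41 (RPL39) to 0.27 (RPL41), with a median standard error of 0.14. Every fold change below is on the log2 scale, siLSD1 minus siCTR, from the edgeR fit of all 6 libraries unless a library is named as left out. In bulk RNA, fewer cells of a kind and less of an mRNA in each cell cannot be told apart.

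That lean was absent without 1 library. Without siCTR replicate 2, 37 of 72 members were lower and 35 higher in siLSD1, the median log2 fold change was 0.00, and the fold change of 32 members turned its sign. The share of all counted reads that fell on members was 3.50%, 4.62% and 3.56% under siCTR against 3.67%, 3.41% and 3.52% under siLSD1. The siCTR mean was thus 3.89% ± 0.625 (SD, n = 3) and the siLSD1 mean 3.53% ± 0.13 (SD, n = 3), and without replicate 2 the siCTR mean was 3.53%. The 40S members took 1.38%, 1.88% and 1.40% under siCTR against 1.46%, 1.36% and 1.39% under siLSD1, and the 60S members 2.13%, 2.74% and 2.16% against 2.22%, 2.05% and 2.13%. In both subunits the siLSD1 values lay beside siCTR replicates 1 and 3, and only replicate 2 lay above them.

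**Figure D2:**
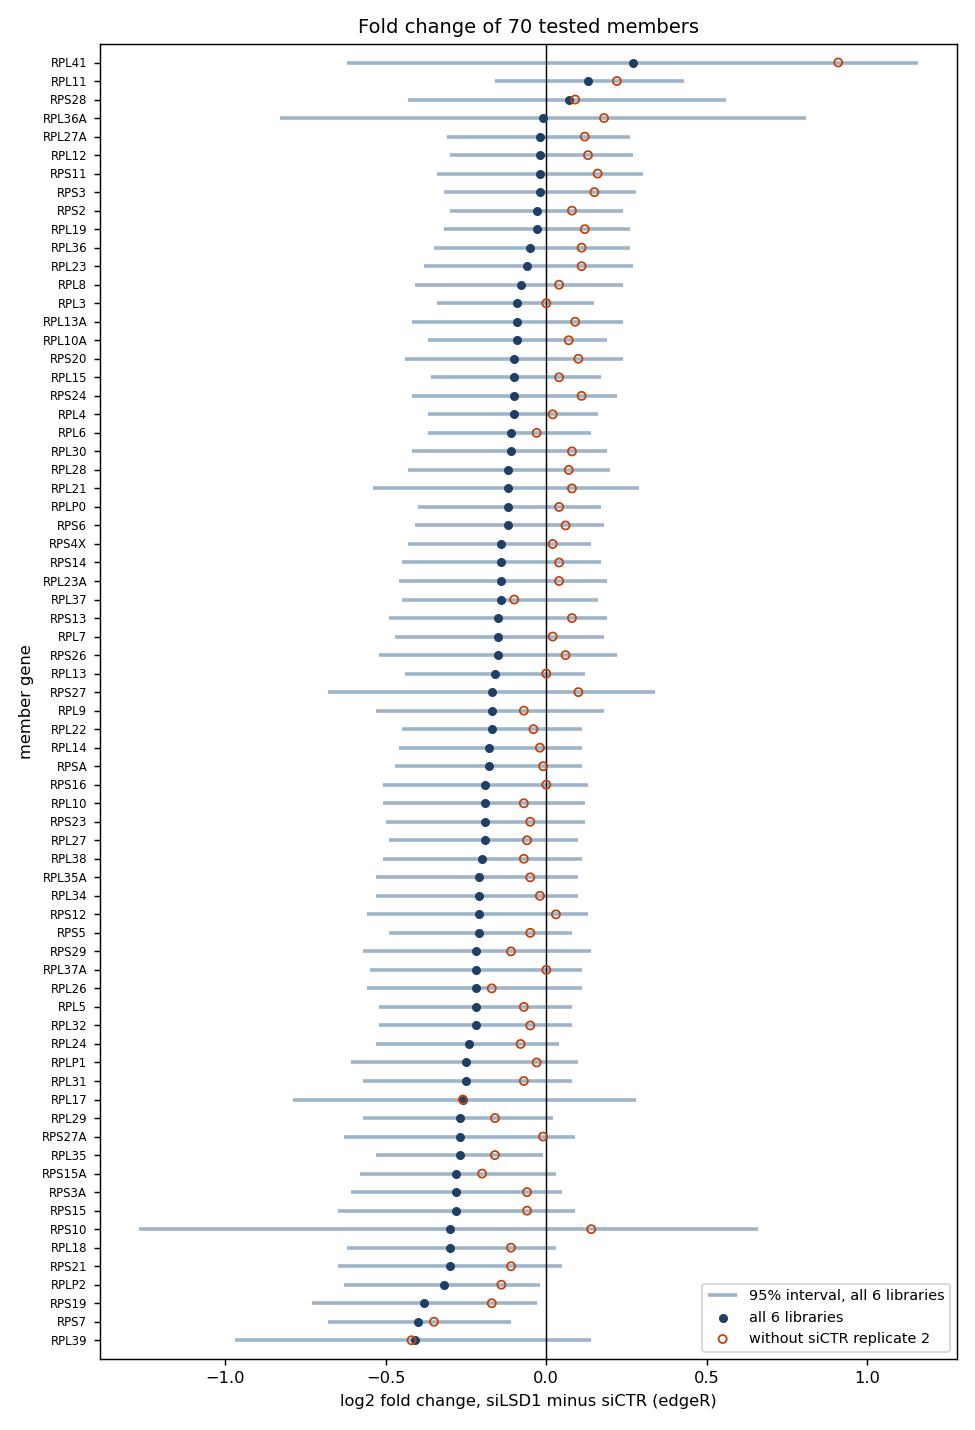
Log2 fold change of 70 of the 72 tested members, siLSD1 minus siCTR, from edgeR (horizontal), with genes ordered by their value (vertical). Filled points and bars give the fit of all 6 libraries with its 95% interval, and open circles the fit without siCTR replicate 2; filled points lie left of 0 for 67 of the 70 genes drawn, whereas the open circles divide into 35 below and 35 above 0.

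Only 2 members had all siLSD1 libraries below all siCTR libraries, RPL24 and RPL35, against 9.97% of all tested genes, and 0 had them all above, against 11.4%. RPL35, which lies near the exit of the peptide tunnel, had 1005, 1208 and 953 CPM (reads scaled by library size and TMM factor) in siCTR and 923, 791 and 912 in siLSD1. Its log2 fold change was -0.27 (95% interval -0.53 to -0.01, edgeR adjusted p = 0.344). Without siCTR replicate 2 it was -0.16 (edgeR adjusted p = 0.523), and with a correction for GC content and length -0.08 (edgeR adjusted p = 0.657). RPL24, which forms part of the bridges to the small subunit, had 212, 286 and 208 CPM in siCTR and 208, 198 and 191 in siLSD1, and its fold change was -0.24 (edgeR adjusted p = 0.437), or -0.08 without siCTR replicate 2. The gap between the groups in both genes was small beside the distance of siCTR replicate 2 from the other libraries.

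Of the small-subunit proteins, RPS7 had the lowest p-value of the family. RPS7, which is also able to bind MDM2, had 261, 251 and 198 CPM in siCTR and 176, 161 and 201 in siLSD1. Replicates 1 and 2 of siLSD1 lay below all siCTR libraries, and replicate 3 lay just above the lowest of them. The fold change was -0.40 (95% interval -0.68 to -0.11, edgeR adjusted p = 0.185), and without siCTR replicate 2 it was -0.35 (edgeR adjusted p = 0.316). RPS19, the gene most often mutated in Diamond-Blackfan anemia, had 615, 952 and 668 CPM in siCTR and 613, 620 and 481 in siLSD1. The groups overlapped, and the fold change of -0.38 (edgeR adjusted p = 0.305) was -0.17 (edgeR adjusted p = 0.607) without siCTR replicate 2. Fitted with same-numbered libraries as blocks, RPS7 and RPS19 passed (edgeR adjusted p = 0.0208 and 0.0328). In that fit 7.57% of all tested genes were called.

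Other small-subunit members with known roles did not pass the test. RPS6, the target of the S6 kinases, had 914, 1269 and 912 CPM in siCTR and 909, 932 and 1013 in siLSD1, a fold change of -0.12 (95% interval -0.41 to 0.18), or 0.06 without siCTR replicate 2. Apart from siCTR replicate 2 its values lay between 909 and 1013 CPM. RPSA, also known as the laminin receptor precursor, had 803, 1163 and 901 CPM in siCTR and 824, 839 and 864 in siLSD1 (fold change -0.18, or -0.01 without siCTR replicate 2). RPS27A, made as a fusion with ubiquitin, had 471, 754 and 486 CPM in siCTR and 446, 445 and 529 in siLSD1 (fold change -0.27, or -0.01 without that library). In each of these genes siCTR replicate 2 was the highest library and the remaining 5 mixed the groups. Among the 7 members at the mRNA channel, the decoding site or the mRNA exit (RPS2, RPS3, RPS3A, RPS14, RPS15, RPS26 and RPS28), 0 were called, 6 were lower and the median was -0.14, which was 0.06 without siCTR replicate 2. RPS27, a zinc finger protein with 412 to 908 reads, had a fold change of -0.17 and a standard error of 0.23, and was at 0.10 without siCTR replicate 2. RPS10, which is ubiquitinated when ribosomes collide, had a fold change of -0.30 with a 95% interval from -1.27 to 0.66 on its few reads, and 0.14 without siCTR replicate 2. RPS28 had 62, 56 and 48 reads under siCTR against 67, 44 and 64 under siLSD1 and a fold change of 0.07 (standard error 0.23).

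Of the large-subunit proteins, the P stalk recruits the translational GTPases to the ribosome. RPLP2 had 328, 424 and 281 CPM in siCTR and 285, 270 and 270 in siLSD1. Replicate 1 of siLSD1 lay above the lowest siCTR library, and the fold change of -0.32 (edgeR adjusted p = 0.316) was -0.14 (edgeR adjusted p = 0.582) without siCTR replicate 2 and -0.13 with the correction for GC content and length. Its partner RPLP1 had 574, 830 and 527 CPM in siCTR and 600, 558 and 463 in siLSD1 (fold change -0.25, edgeR adjusted p = 0.514), and was at -0.03 without siCTR replicate 2. RPLP0, which anchors both to the ribosome, had 1081, 1534 and 1191 CPM in siCTR and 1206, 1153 and 1148 in siLSD1 (fold change -0.12, or 0.04 without that library). RPL12, at the stalk base, had 329, 426 and 319 CPM in siCTR and 386, 355 and 320 in siLSD1 (fold change -0.02, or 0.13 without it). The 4 genes therefore had a median of -0.19 with all libraries and 0.01 without siCTR replicate 2, and no call after adjustment.

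The MDM2-binding pair of the 5S particle lay on either side of 0. RPL5 had 1175, 1687 and 1381 CPM in siCTR and 1085, 1220 and 1327 in siLSD1 (fold change -0.22, 95% interval -0.52 to 0.08; -0.07 without siCTR replicate 2). RPL11 had 780, 892 and 742 CPM in siCTR and 872, 733 and 1042 in siLSD1 (fold change 0.13, 95% interval -0.16 to 0.43; 0.22 without siCTR replicate 2). The higher value of RPL11 came from siLSD1 replicate 3, and without that library its fold change was 0.00. Neither gene passed the test, and the difference between them was not tested. The 10 tested Diamond-Blackfan anemia genes of the list (RPS7, RPS10, RPS19, RPS24, RPS26, RPL5, RPL11, RPL15, RPL26 and RPL35A) had a median of -0.22, and of -0.01 without siCTR replicate 2, with 0 calls after adjustment.

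Members that line the peptidyl transferase center or the exit tunnel (RPL3, RPL4, RPL10, RPL17 and RPL39) were all below 0, with a median of -0.19 and of -0.07 without siCTR replicate 2. RPL39, a very short protein of the tunnel wall, had the lowest fold change of the family and few reads, with 189, 156 and 139 under siCTR against 185, 99 and 82 under siLSD1. The siLSD1 values ran from below the lowest siCTR library to just under the highest, and the fold change of -0.41 had a 95% interval from -0.97 to 0.14 (edgeR adjusted p = 0.499). Leaving out siLSD1 replicate 1 moved it to -0.82, and leaving out replicate 3 of the same group to -0.18. RPL22, whose product also binds viral and cellular RNAs, had 699, 893 and 743 reads under siCTR against 676, 679 and 729 under siLSD1 (fold change -0.17, or -0.04 without siCTR replicate 2). RPL36A, at 10 to 23 reads, had a fold change of -0.01 with a 95% interval from -0.83 to 0.81, and of 0.18 without siCTR replicate 2.

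RPL41 varied widely from library to library. This gene encodes the shortest protein of the ribosome and had 557, 1513 and 607 reads under siCTR against 1647, 1142 and 464 under siLSD1. Both groups held a library above 1500 reads and a library below 600, and the fold change of 0.27 had a 95% interval from -0.62 to 1.16. Without siCTR replicate 2 it was 0.91 (edgeR adjusted p = 0.381), and without siLSD1 replicate 1 it was -0.12.

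The height of siCTR replicate 2 was shared by the whole family. Its value exceeded the mean of the 6 libraries in all 72 members, by 0.02 (RPS28) to 0.85 (RPS10) on the log2 scale with a median of 0.35. It was the highest of the 6 libraries in 63 of 72 members (87.5%), and in 27.2% of all tested genes. The exceptions included RPL11, RPL17, RPL26, RPL37, RPL39, RPL41, RPS7 and RPS28, of which RPL17, RPL26, RPL39, RPL41 and RPS28 were among the members with few reads. The medians of the other libraries were -0.07 and -0.09 in siCTR replicates 1 and 3, and -0.02, -0.10 and -0.10 in siLSD1 replicates 1 to 3. Members above their own mean numbered 20 and 15 in siCTR replicates 1 and 3, and 31, 8 and 22 in the siLSD1 libraries.

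**Figure D3:**
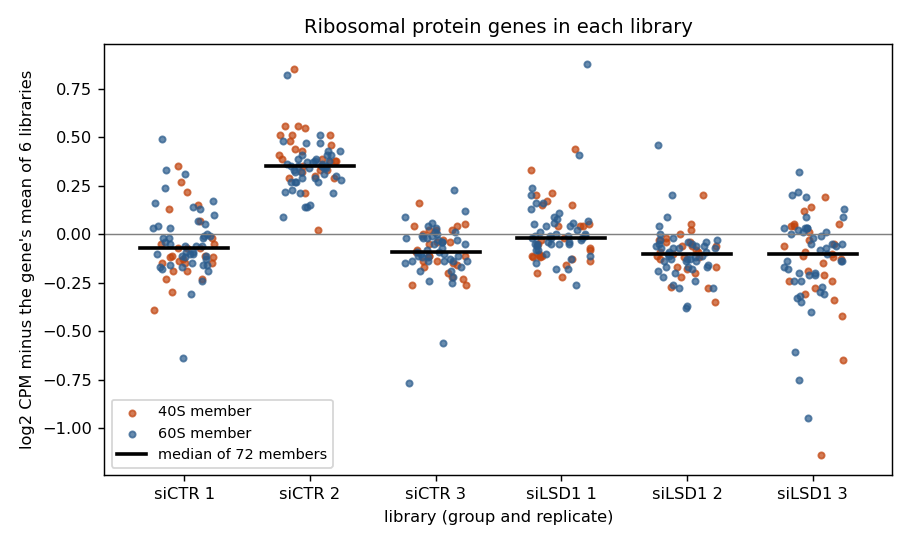
Each point is 1 of the 72 tested members in 1 library, as log2 CPM minus the gene's mean over the 6 libraries (vertical), by library (horizontal), coloured by subunit, with the median as a bar. In siCTR replicate 2 all points lie above 0 with a median of 0.35, and in the other 5 libraries the medians lie between -0.10 and -0.02; siLSD1 replicate 3 has the widest spread.

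Transcript length moved with the same library. Among the 11772 other tested genes, the deviation of siCTR replicate 2 fell with the length of the reference transcript (Spearman rho -0.50, a description across genes). Genes of up to 700 bases had a median of 0.31 and those over 4000 bases a median of -0.13. Members had a median transcript length of 895 bases against 3366 for all tested genes, and the 26 members of up to 700 bases had a median of 0.41. The 4 members with reference transcripts over 4000 bases (RPL14, RPL27A, RPL28 and RPL37) still had a median of 0.32, although other genes of that length were at -0.13. Their coding sequences are as short as those of the rest of the family, and which transcript the cells made was not measured. Within the family the relation to length was weaker (rho -0.21, n = 72). The part of length in the height of the family was not tested further than by a correction for GC content and length together, under which 54 of 72 members were lower in siLSD1 and the median was -0.07.

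**Figure D4:**
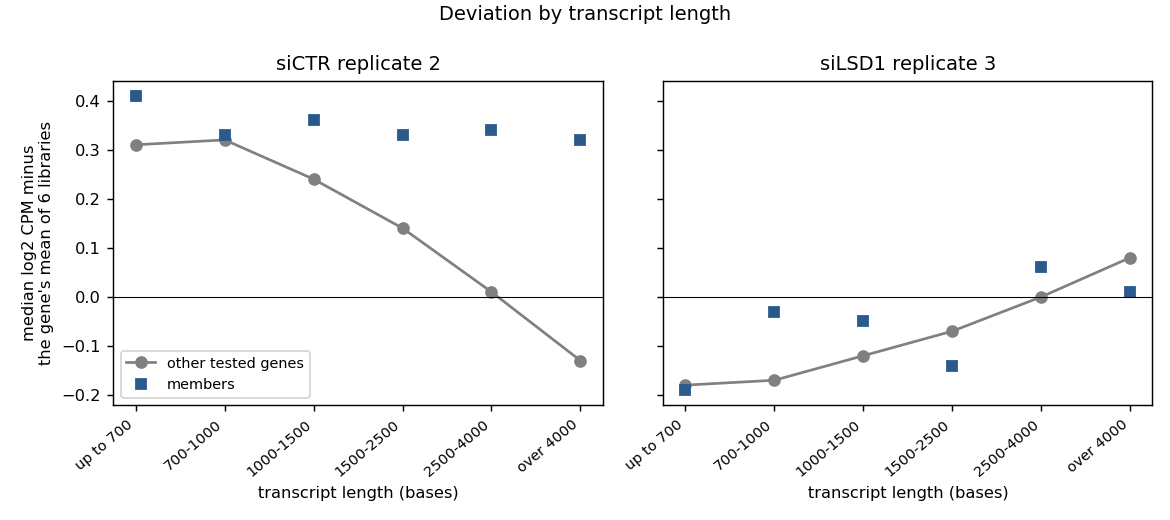
Median deviation from the 6-library mean (vertical, log2 CPM) by length class of the reference transcript (horizontal, bases) in siCTR replicate 2 and siLSD1 replicate 3, for other tested genes (line) and members (squares, 26, 13, 16, 9, 4 and 4 genes from short to long). In siCTR replicate 2 the other genes fall from 0.31 to -0.13, while members stay between 0.32 and 0.41 in every class.

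The library of siLSD1 replicate 3 spread the members apart. Its deviations had an SD of 0.25 over the 72 members, against 0.13 to 0.18 in the other 5 libraries, and ran from -1.14 (RPS10) to 0.32 (RPL11). Next to RPL11, RPL36A (0.22), RPL23 (0.20), RPL37 (0.19) and RPS20 (0.19) were highest. At the low end stood RPL41 (-0.95), RPL39 (-0.75), RPS27 (-0.65), RPL17 (-0.61), RPS19 (-0.42) and RPL10 (-0.40). Of the genes at both ends, RPS10, RPL36A, RPL41, RPL39, RPS27 and RPL17 were among the members below 1000 reads. In this library they had 9, 22, 464, 82, 412 and 38 reads. RPL23, a component of the subunit interface to which eIF6 binds, had 658, 974 and 772 CPM in siCTR and 721, 695 and 896 in siLSD1, so that replicate 3 was the highest siLSD1 library for it and the lowest for RPS19. Across the other tested genes this library's deviation fell with GC content (Pearson r -0.58), and siCTR replicate 1 and siLSD1 replicate 1 rose with it (0.39 and 0.49). Within the family the relation in siLSD1 replicate 3 was weak (-0.19), although GC content of members spanned 40.1% to 63.6%. With members split into 3 groups of 24 by GC content, those lowest in GC had a median deviation of -0.02 in that library and those highest in GC of -0.15. The median fold change was -0.18, -0.16 and -0.14 from the lowest to the highest group.

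The naming leaves out FAU, a ribosomal protein gene with an unrelated symbol. FAU, which encodes RPS30 fused to a ubiquitin-like protein, had 2138, 2692 and 1778 reads under siCTR against 2433, 1866 and 1170 under siLSD1 (fold change -0.28). It did not pass the test (edgeR adjusted p = 0.61), siCTR replicate 2 was its highest library, and without that library its fold change was -0.09.

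Of 8 paralogs of ribosomal protein genes, 6 were tested and 0 passed after adjustment. RPL26L1 had 401, 448 and 392 reads under siCTR against 592, 491 and 500 under siLSD1, with all siLSD1 libraries above all siCTR libraries (fold change 0.35, edgeR adjusted p = 0.238). RPS27L, a p53-responsive paralog of RPS27, had 1079, 1418 and 1157 reads under siCTR against 875, 825 and 1132 under siLSD1 (fold change -0.38, edgeR adjusted p = 0.255). Without siCTR replicate 2 these were 0.42 and -0.23. RPL7L1, RPL36AL, RPL22L1 and RPL39L lay between -0.13 and 0.00. RPL3L, known from muscle, had at most 6 reads, and RPL10L, known from testis, had no row.

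The mitochondrial ribosome is built from a separate set of nuclear genes whose mRNAs mostly lack a TOP start. The set was taken by symbol alone (MRPL and MRPS), whether or not each product is part of that ribosome. Of its 74 tested genes, 0 were called after adjustment, 69 were lower in siLSD1 and the median was -0.18. At an unadjusted p under 0.05 there were 10 lower (13.5%, against 6.55% of all tested genes) and 0 higher, and without siCTR replicate 2 there were 3 lower (MRPS36, MRPS18A and MRPL55), or 4.05% of the set against 5.69% of all tested genes. Without siLSD1 replicate 2 there were 4 (3.79% of all tested genes were lower in that fit), and without siCTR replicate 1 there were 17 (6.58%). MRPS36 (-0.62, edgeR adjusted p = 0.116) and MRPL46 (-0.62, standard error 0.39 on 22 to 78 reads) had the lowest fold changes, and MRPL10 (0.10) and MRPL24 (0.09) the highest. Like the cytosolic set, these genes were high in siCTR replicate 2 (median deviation 0.30, with 73 of 74 above their mean), and without it the median was -0.05 with 49 of 74 lower. Fitted with same-numbered libraries as blocks, 7 of the 74 were called lower after adjustment, against 7.57% of all tested genes called in either direction.

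Other TOP mRNAs were also compared. Of 18 tested genes for translation factors and related TOP mRNAs, 12 were lower, the median was -0.03, and 0 were called before or after adjustment. The lowest fold changes were those of NACA (-0.24) and BTF3 (-0.18), subunits of the nascent polypeptide-associated complex, and the highest those of EIF3F (0.23) and EIF3A (0.18). Without siCTR replicate 2 the direction turned, with 3 lower, 15 higher and a median of 0.06, and NACA was at -0.05, BTF3 at 0.02 and EIF3F at 0.35, the last then at an unadjusted p under 0.05. In that fit 12.7% of all tested genes were at that level in either direction. EEF1A1, the most abundant, had 46576, 62579 and 51946 reads under siCTR against 54032, 52901 and 50438 under siLSD1 (fold change -0.04, or 0.11 without siCTR replicate 2). EEF2 had its lowest count in siCTR replicate 2, with 39805, 34389 and 42768 reads under siCTR against 46895, 39846 and 43233 under siLSD1. These genes were at a median deviation of 0.17 in that library. As for the members, some had almost no reads (EEF1D, at most 1) or no row (EEF1B2, EEF1G and EIF3K).

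Genes that control TOP mRNAs and genes for carriers of ribosomal proteins gave no call after adjustment. Of 14 genes of mTORC1, its inputs and targets and LARP1, 0 were called, 8 were lower and the median was -0.02, or -0.05 with 9 lower without siCTR replicate 2. The lowest fold changes were those of RHEB (-0.27) and EIF4E (-0.26), which were -0.09 and -0.14 without that library, while MTOR went from -0.09 to -0.28 and TSC2 from -0.14 to -0.30, both then at an unadjusted p under 0.05. These were 2 of 14 genes (14.3%), against 5.69% of all tested genes lower in that fit. The highest with all libraries were EIF4EBP2 (0.16) and LARP1 (0.16). In siCTR replicate 2 this set had a median deviation of -0.11, with 6 of 14 genes above their own mean, among them RHEB (0.44) and EIF4E (0.36). Of 7 dedicated chaperones, 6 were lower (median -0.12) and 0 were called after adjustment. All 7 lay above their own mean in siCTR replicate 2 (median deviation 0.26), and without it the median was -0.02. GRWD1 was the chaperone gene with an unadjusted p under 0.05 (1 of 7, or 14.3%, against 6.55% of all tested genes lower). It kept this level without siLSD1 replicate 1 and lost it without each other library. GRWD1, an escort of RPL3, had 1097, 1180 and 1142 reads under siCTR against 1079, 908 and 848 under siLSD1 (fold change -0.27, edgeR adjusted p = 0.327), with all siLSD1 libraries below all siCTR libraries in reads. LTV1, which escorts RPS3, was at -0.27, or -0.18 without siCTR replicate 2, and TSR2 (0.07), which escorts RPS26, and PDCD2 (-0.02), which escorts RPS2, were highest.

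**Figure D5:**
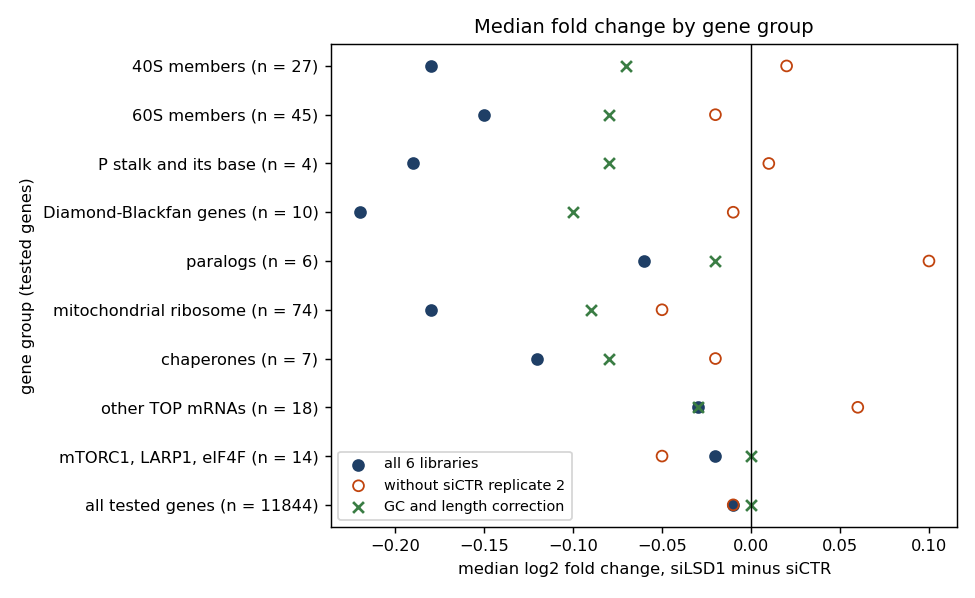
Median log2 fold change, siLSD1 minus siCTR (horizontal), of each gene group (vertical, with its number of tested genes), for all 6 libraries (filled), without siCTR replicate 2 (open) and with a correction for GC content and length (crosses). The 40S, 60S and mitochondrial sets lie between -0.18 and -0.15 with all libraries and between -0.05 and 0.02 without siCTR replicate 2, while all tested genes stay at -0.01 in both.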

How the data were processed

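RNA was measured by RNA-seq in 3 siCTR and 3 siLSD1 libraries of U2OS cells, grouped and numbered from the labels. The authors aligned reads with STAR (per the labels) and deposited whole-number read counts per gene of 6 libraries in 1 table, without normalization, and FPKM values, in which reads are divided by gene length and by the library's counted total. The genome build, the annotation, the counter and its use of strand are not given in the sources used here. The deposited tables for pairs of libraries held a second set of read counts, used as an alternative. Their columns of size-factor-normalized signal and of DESeq2 fold changes and p-values were not used.

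Genes with enough reads (filterByExpr, minimum count 10, 11844 genes) were tested with edgeR 4.0.16 (R 4.3.3) by the quasi-likelihood test with TMM factors and Benjamini-Hochberg adjustment over all tested genes, threshold 0.05. The common biological coefficient of variation was 12.6%. Log2 CPM values used a prior count of 2. With 3 against 3 libraries, a permutation of labels cannot give a p below 0.1. Counting error is small beside the spread between libraries except for members with few reads. The test was tried on simulated data first. Alternatives were DESeq2 1.42.0, limma-voom 3.58.1, other scalings and filters, a replicate block, a correction for GC content and length, the second counts, and leaving out each library. Symbols were matched to GENCODE 44 on GRCh38 (15352 genes). Copies of transcripts were sought with minimap2 2.31 (at least 90% of the transcript covered). Start sites came from RefSeq (GRCh38.p14).

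The members and gene lists were chosen with earlier results of these data known. Values are given for members with few reads or no row, an unadjusted p under 0.05, the 5 highest and lowest fold changes (3 members were above 0), the 5 highest and lowest levels per length, the 5 largest ratios of second to first count, and a set named for their roles. RPL24 and the members listed by deviation were named after their values were seen. The values of some genes are not reported here, and they are not drawn in the plots that name genes.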

Additional observations from a re-analysis of the deposited data

How the results depend on the processing

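Of the ribosomal protein genes, 0 passed an adjusted p of 0.05 with all scalings, filters, tests and left-out libraries. The exceptions were the fits with a replicate block: with the block alone, 2 fell (RPS7 and RPS19) and 15 were lower at an unadjusted p under 0.05, against 11.2% of all tested genes, and after adjustment 489 genes were up and 408 down over all genes. The correction for GC content and length together with the block gave 1 (RPS19), with 1 higher and 10 lower before adjustment (14.4% of all tested genes were lower), and 824 up and 704 down over all genes. The sample labels do not say whether same-numbered libraries are pairs. Deviations of same-numbered libraries correlated at 0.328, 0.074 and 0.31, and each library correlated best with its own number. Between libraries of different numbers the correlations ran from -0.286 to 0.007. The second counts were also deposited in pairs of the same number. Whether the fits with or without the block describe the design better was not tested. Under the block RPS27L, MRPS36 and CDH1 also passed (edgeR adjusted p = 0.0372, 0.00546 and 0.00299), as did 6 further mitochondrial ribosomal protein genes (7 of 74 in all, with 23 lower before adjustment), and the other calls named in the text stayed. With the GC and length correction and the block 6 of the mitochondrial genes fell, and RHEB, GRWD1, CDH1, RPS27L and RPL26L1 passed.

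Over all genes, 127 were up and 44 down after adjustment, against 210 and 113 by DESeq2, 599 and 414 with the GC and length correction, and 188 and 102 with no filter, where 8 members were lower before adjustment, against 5.94% of all genes. With the GC and length correction, RPL26L1, RPS27L and CDH1 also passed (edgeR adjusted p = 0.0148, 0.0499 and 0.0263). CDH1 passed by DESeq2 and with no filter too. Leaving out single libraries gave 45 to 99 up and 7 to 37 down over all genes, 0 to 1 members higher and 1 to 16 lower before adjustment, and a median of the members from -0.24 to 0.00. The member median was -0.17 to -0.16 under all other alternatives except the GC and length corrections (-0.07).

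Some single fold changes turned sign. RPS28 was -0.01 with the second counts. RPL36A was 0.08 by limma-voom, 0.02 with the block, 0.12 with the GC and length correction and 0.14 with both. Without single libraries the fold changes ran from -0.12 to 0.91 for RPL41, 0.00 to 0.26 for RPL11, -0.04 to 0.21 for RPS28, -0.65 to 0.14 for RPS10, -0.22 to 0.04 for RPLP0, -0.20 to 0.06 for RPS6, -0.33 to 0.18 for RPL36A and -0.40 to 0.10 for RPS27. The causes were not tested.

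Depth limits RPL7A, RPL36A, RPS10, RPS28 and RPL17 (means under 60 reads). Standard errors of those tested ran from 0.23 to 0.45, against a median of 0.14 over the members. Which size of change could be detected was not tested, and no member with more reads passed in the main fit either. Alternatives were planned except the share of reads without siCTR replicate 2, which was chosen after seeing the data.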
